A study of Mus musculus with 43 samples.

Results

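Tmcc2, Fhdc1, Trim10, Bloodlinc, Apol11a and Apol11b are 6 of the 56941 genes in the deposited count table, picked by symbol because their RNA was raised in the marrow stroma of mice that carried a JAK2V617F clone. The stromal values of these genes therefore chose them, and their difference between transplanted and control stroma is given below as a description with no test. Later tests of the stromal values against sex, chimerism and other sorts use the same libraries. Each was matched to 1 row of the table through its Ensembl gene identifier (Tmcc2 ENSMUSG00000042066, Fhdc1 ENSMUSG00000041842, Trim10 ENSMUSG00000073400, Bloodlinc ENSMUSG00000087330, Apol11a ENSMUSG00000091650, Apol11b ENSMUSG00000091694). JAK2V617F is an activating change in the JAK2 kinase, which relays erythropoietin signals, and it is the common driver of myeloproliferative neoplasms.

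In the study, 5000000 JAK2V617F-positive whole marrow cells (CD45.2) were given to wild-type CD45.1 mice without irradiation or other conditioning, and the marrow was sorted about 7 months later. Stroma, sorted after red cell lysis as negative for CD45 and for B220, NK1.1, CD4 and CD8 (lymphocytes), Ly-6G/Ly-6C and CD11b (myeloid cells) and the red cell antigen Ter119, came from 7 transplanted mice and 8 age- and sex-matched wild-type mice that received no graft. The same animals gave the haematopoietic libraries: donor CD45.2 cells and host CD45.1 cells of the 7 transplanted mice, and CD45.1 cells of the 8 control mice. A separate set of CD45.1+ CD11b+ myeloid cells, taken 52 weeks after transplantation, had 3 transplanted and 3 control male mice. No mice were given normal marrow, so effects of the mutation and of transplantation itself cannot be told apart. Final blood chimerism, printed in the labels without a unit, ran from 0.63 to 5.99 with a median of 2.06. The donor library of mouse N204 is titled as donor but carries a recipient label in 1 field. The fits of the 6 genes in donor against control cells, and in donor against host cells with the animal as a block, are therefore also given without it. Most other results on donor cells, such as correlations and calls of gene lists, are given only with it.

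Library depth was 41210646 to 63970034 counts in stroma of transplanted mice and 50733339 to 143228988 counts in stroma of control mice. It was 15713119 to 19683698 counts in the 22 CD45 libraries and 32478800 to 44853593 counts in the 6 CD11b libraries. Stroma was made into libraries with a low-input kit and the CD45 cells with a strand-specific poly-A method, so no test compares levels between the 2 kinds. Correlations across mice between the 2 kinds, with p-values, are given only in the last section. Levels below are CPM, counts per 1e6 counts of the library, scaled by TMM (trimmed mean of M values) within stroma, within the CD45 libraries or within the CD11b libraries. In bulk libraries such as these, fewer cells of a type and less RNA per cell cannot be told apart. The LepR stroma markers (Cxcl12, Lepr, Kitl, Adipoq, Pdgfra and Ebf3), which were not used in the sort, summed to 906 to 4464 CPM in stroma of transplanted mice and 1530 to 7782 CPM in stroma of control mice, and none was at 0.

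A red blood cell matures from erythroblasts that first switch on early regulators such as Gata1 and Klf1, then fill with globin and haem, and at the end expel the nucleus and clear their organelles as reticulocytes. Transcripts that persist into the last steps, globin above all, mark the late end of this course. Among the 6 genes, Trim10 (HERF1) is a RING finger protein needed for terminal erythroid differentiation in mouse cells. Bloodlinc is a long non-coding RNA from a super-enhancer beside the band 3 gene Slc4a1 that promotes red cell production in mouse. Tmcc2 is a transmembrane coiled-coil protein of the endoplasmic reticulum with high expression in maturing red cells, and Fhdc1 is a formin, a protein with an FH2 domain, that acts on microtubules and the Golgi. Apol11a and Apol11b belong to the mouse apolipoprotein L cluster.

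The RefSeq promoter table (build GRCm38.p6, 250 bases before to 50 after each annotated start) held 8 start sites for 5 of the 6 genes: 3 for Tmcc2, 2 for Fhdc1 and 1 each for Trim10, Apol11a and Apol11b. These windows were searched on both strands for AGATAA and TGATAA, letters recognised by Gata1 and its relatives, for CCNCNCCC, a form of the element bound by Klf1-type factors, and for CANNTG, the E-box. The windows below are the 1 per gene that holds AGATAA or TGATAA, shown because the genes moved together. Capitals mark matches on either strand to each of these motifs but the E-box, which is left in lower case like all other bases, and overlapping matches run together.
Tmcc2 (chr1:132367899-132368198, minus strand): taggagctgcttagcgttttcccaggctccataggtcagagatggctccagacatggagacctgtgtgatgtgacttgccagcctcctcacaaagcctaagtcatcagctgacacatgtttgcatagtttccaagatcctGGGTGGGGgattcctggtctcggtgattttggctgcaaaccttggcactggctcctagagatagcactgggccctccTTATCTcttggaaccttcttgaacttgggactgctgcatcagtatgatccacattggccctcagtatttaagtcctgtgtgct
Fhdc1 (chr3:84479442-84479741, minus strand): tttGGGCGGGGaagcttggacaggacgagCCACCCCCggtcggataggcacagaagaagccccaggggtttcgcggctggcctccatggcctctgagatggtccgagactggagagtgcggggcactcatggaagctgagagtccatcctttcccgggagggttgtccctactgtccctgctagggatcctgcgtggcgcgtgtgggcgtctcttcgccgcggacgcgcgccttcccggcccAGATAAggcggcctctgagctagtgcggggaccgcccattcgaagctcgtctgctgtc
Trim10 (chr17:36869324-36869623, plus strand): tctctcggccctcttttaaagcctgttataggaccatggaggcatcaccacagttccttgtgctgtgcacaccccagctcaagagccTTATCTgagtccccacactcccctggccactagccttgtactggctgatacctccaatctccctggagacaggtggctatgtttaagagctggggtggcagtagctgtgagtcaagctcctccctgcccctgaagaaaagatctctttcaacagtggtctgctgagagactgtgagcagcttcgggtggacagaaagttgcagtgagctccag
Apol11a (chr15:77508019-77508318, plus strand): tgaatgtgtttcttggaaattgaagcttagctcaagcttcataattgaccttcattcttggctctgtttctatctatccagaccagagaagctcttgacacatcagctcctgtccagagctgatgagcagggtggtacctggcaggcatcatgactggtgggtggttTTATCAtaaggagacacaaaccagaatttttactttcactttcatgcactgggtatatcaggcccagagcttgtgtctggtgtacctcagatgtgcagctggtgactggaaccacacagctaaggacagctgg
Apol11b (chr15:77643237-77643536, minus strand): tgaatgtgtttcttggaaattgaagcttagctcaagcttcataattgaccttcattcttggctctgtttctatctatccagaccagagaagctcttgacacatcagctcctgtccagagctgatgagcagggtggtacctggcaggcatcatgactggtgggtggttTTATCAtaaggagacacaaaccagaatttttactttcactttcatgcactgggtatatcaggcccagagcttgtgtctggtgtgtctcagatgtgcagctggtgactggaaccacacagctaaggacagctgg

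The AGATAA match began at position -33 relative to the start in Tmcc2, -8 in Fhdc1 and -163 in Trim10, and the TGATAA match lay at -83 in both Apol11 genes. Of the 8 windows, 5 held AGATAA or TGATAA, and 18.6% of all 32851 RefSeq promoter windows did. AGATAA alone was in 3 of the 8 windows and 11.2% of all, and TGATAA in 2 of the 8 and 9.05% of all. CCNCNCCC was in 4 of the 8, all of Tmcc2 or Fhdc1, and in 49.5% of all windows. CANNTG was in 6 of the 8 and 72.3% of all. The 2 windows with TGATAA are those of Apol11a and Apol11b, identical at 298 of 300 bases. Their matches are therefore not separate, and counts over the 8 windows include both. A match is a description of the letters, and binding was not measured in this series.

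The Apol11a and Apol11b windows were identical at 298 of 300 bases. They differed by A251G and C252T, counted from 1 at the 5′ end of the window with the Apol11a base first, which places both at the annotated start. Their transcripts are less alike: 15.3% of the 50-base windows of the Apol11a transcript and 12.3% of those of the longest Apol11b transcript occur in the other gene, and no 150-base window does, in GENCODE M21. Reads from such shared stretches could be assigned to either gene, and how the authors' counting treated them is not given in the sources used here. The values of the 2 genes are therefore uncertain relative to each other.

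All 6 genes were higher in the stroma of every transplanted mouse than in the stroma of any control mouse. Tmcc2 moved most and was also the most abundant. Across all 26191 genes tested, 0.466% were called higher and 1.03% lower at an adjusted p below 0.05, and 0.233% had all 7 transplanted libraries above the highest control library. These shares are background only, since this contrast chose the 6 genes.

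Trim10, the erythroid RING finger gene, had a lowest, median and highest level of 32.9, 130 and 343 CPM in transplanted stroma, against 6.47, 12.4 and 31.7 CPM in control stroma. The gap between the groups was narrow, because the control library of mouse N093 stood at 31.7 CPM while the next control was at 19.5 CPM. The log2 fold change from edgeR was 3.06 ± 0.40 (SE).

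Bloodlinc was the scarcest of the 6. It had a lowest, median and highest level of 1.27, 3.73 and 10.3 CPM in transplanted stroma and 0.154, 0.347 and 0.581 CPM in control stroma, which rests on 73 to 639 and 10 to 39 counts per library. The 2 highest transplanted libraries, N203 and N014, stood above the others, and the log2 fold change was 3.55 ± 0.42 (SE).

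Tmcc2 had a lowest, median and highest level of 171, 1088 and 3815 CPM in transplanted stroma, against 10.7, 22.3 and 47.6 CPM in control stroma. The lowest transplanted library was therefore well above the highest control library. Its log2 fold change of 5.51 ± 0.63 (SE) ranked 4 among all genes tested, and its means were 1394 ± 1317 CPM in transplanted stroma and 26.7 ± 15.0 CPM in control stroma (SD, n = 7 and 8).

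Fhdc1 had a lowest, median and highest level of 8.51, 35.9 and 107 CPM in transplanted stroma, against 2.77, 3.29 and 4.95 CPM in control stroma. The transplanted libraries spanned 12.6-fold from lowest to highest and the control libraries 1.79-fold, the narrowest control span of the 6 genes. The log2 fold change was 3.24 ± 0.44 (SE).

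Apol11b had a lowest, median and highest level of 35.8, 94.9 and 297 CPM in transplanted stroma, against 0.717, 3.61 and 19.7 CPM in control stroma, a log2 fold change of 4.23 ± 0.63 (SE). Apol11a, which was scarcer, had 3.31, 8.04 and 26.5 CPM in transplanted stroma, against 0.0525, 0.597 and 3.14 CPM in control stroma, a log2 fold change of 3.20 ± 0.58 (SE). In both genes the control library of N002, the deepest of the stroma libraries, was the highest control, and N093 was the lowest control, with 41 counts of Apol11b and 3 of Apol11a. Without N002 the log2 fold changes were 4.88 for Apol11b and 3.85 for Apol11a.

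**Figure D1:**
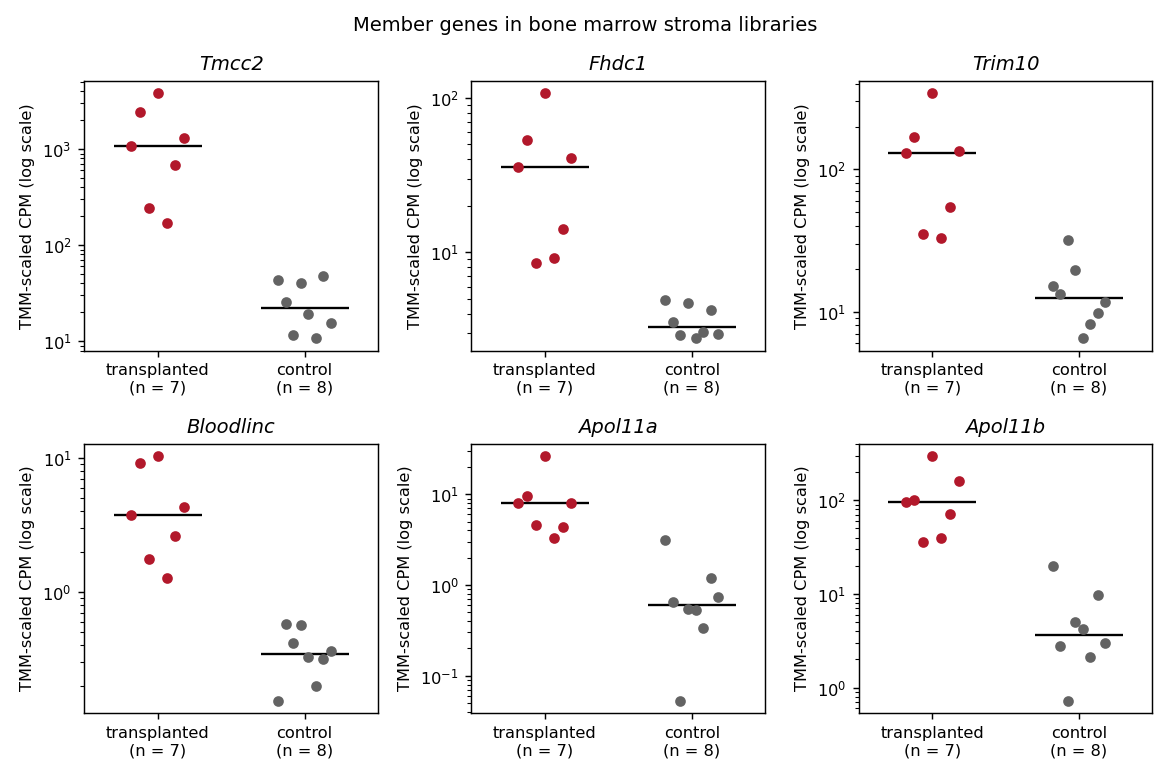
TMM-scaled CPM (log axis) of each of the 6 genes in every stroma library; points are mice, 7 transplanted and 8 control, and the bar is the median of the group. All transplanted libraries lie above all control libraries in each panel, and the distance is widest for Tmcc2, with medians of 1088 and 22.3 CPM.

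Per length, as TPM, which divides by transcript length, the order of the genes in transplanted stroma was Tmcc2 at 600 ± 557 TPM, Apol11b at 75.5 ± 59.6 TPM, Trim10 at 69.5 ± 58.1 TPM, Fhdc1 at 11.3 ± 10.1 TPM, Apol11a at 5.34 ± 4.61 TPM and Bloodlinc at 2.94 ± 2.20 TPM (SD, n = 7). Apol11b and Trim10 lay within each other's spread, and so did Apol11a and Bloodlinc. In control stroma Trim10 stood second, with Tmcc2 at 11.6 ± 6.79 TPM, Trim10 at 8.47 ± 5.31 TPM, Apol11b at 4.11 ± 4.20 TPM, Fhdc1 at 1.42 ± 0.478 TPM, Apol11a at 0.553 ± 0.577 TPM and Bloodlinc at 0.228 ± 0.132 TPM (SD, n = 8). There the levels of Tmcc2 and Trim10 overlapped.

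The transplanted mice differed widely among themselves and kept nearly one order over the genes. N203 was the highest library for all 6 genes, and N204 or N032 was the lowest for each. Over the 15 pairs of genes, the log2 levels of the 7 transplanted libraries correlated with a Pearson r of 0.86 to 1.00 and a median of 0.95, all positive. Over the 8 control libraries the same pairs had an r of -0.48 to 0.95 with a median of 0.24, and 10 of 15 were positive. These correlations share libraries and depth, and are a description.

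Other late red cell genes rose in the same comparison, and no early one was called higher. Lists of erythroid genes that are no members were tested in the edgeR fit over all genes. All gene lists used here were chosen with earlier results of these data known. The fit also rests on the stroma libraries that picked the members. The calls and adjusted p-values of listed genes in stroma are therefore no independent test. All 4 adult globin genes were called higher, with log2 fold changes from 2.696 to 3.332. Hba-a1 and Hba-a2, and likewise Hbb-bs and Hbb-bt, share long stretches, so single globin values are uncertain, and their sum is used below.

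Of 23 measured genes of terminal erythroid differentiation, 9 were called higher and none lower, with a median log2 fold change of 0.94 against 0.04 for all genes tested. Among those with the smallest p were Alas2, the erythroid enzyme of the first step of haem synthesis, and Slc4a1, the band 3 anion exchanger. Their log2 fold changes were 3.50 ± 0.43 for Alas2 (edgeR adjusted p = 0.000791) and 3.31 ± 0.49 for Slc4a1 (adjusted p = 0.00167; SE in each case). Slc4a1 averaged 220 ± 192 CPM in transplanted stroma and 19.7 ± 14.1 CPM in control stroma (SD, n = 7 and 8).

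Of 12 genes of reticulocyte maturation, 4 were called higher and none lower, with a median log2 fold change of 0.36. These were Xpo7, a nuclear export receptor used in nuclear condensation, Trim58, which acts in enucleation, Ube2l6, a ubiquitin-like conjugating enzyme, and Ube2o, which tags ribosomal proteins for removal in reticulocytes. Their log2 fold changes were 2.90 ± 0.45 (adjusted p = 0.00232), 3.08 ± 0.49 (adjusted p = 0.00245), 1.36 ± 0.23 (adjusted p = 0.00343) and 1.61 ± 0.31 (adjusted p = 0.00976) by edgeR, in that order and with SE.

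Of 16 early erythroid genes, none was called higher and 1, Lmo2, was called lower, at -1.43 ± 0.30 (SE, edgeR adjusted p = 0.0206). Lmo2 is a bridging subunit of the Tal1 and Gata1 complex. The median log2 fold change of this list was -0.32. Gata1, the master regulator of the lineage, averaged 62.9 ± 47.7 CPM in transplanted stroma and 57.8 ± 23.2 CPM in control stroma (SD, n = 7 and 8) and was not called (log2 fold change -0.09, edgeR adjusted p = 0.998). With males alone 5 of the 39 globin, terminal and reticulocyte genes were called higher, against 17 in all mice, and with females alone none was. Few genes of any kind were called in these smaller fits. Males alone had 27 of 27523 genes called higher, and females alone had 0 of 25737 called in either direction. The summed level of the early list overlapped between groups, at 1251 to 10415 CPM in transplanted stroma and 2327 to 6922 CPM in control stroma.

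**Figure D2:**
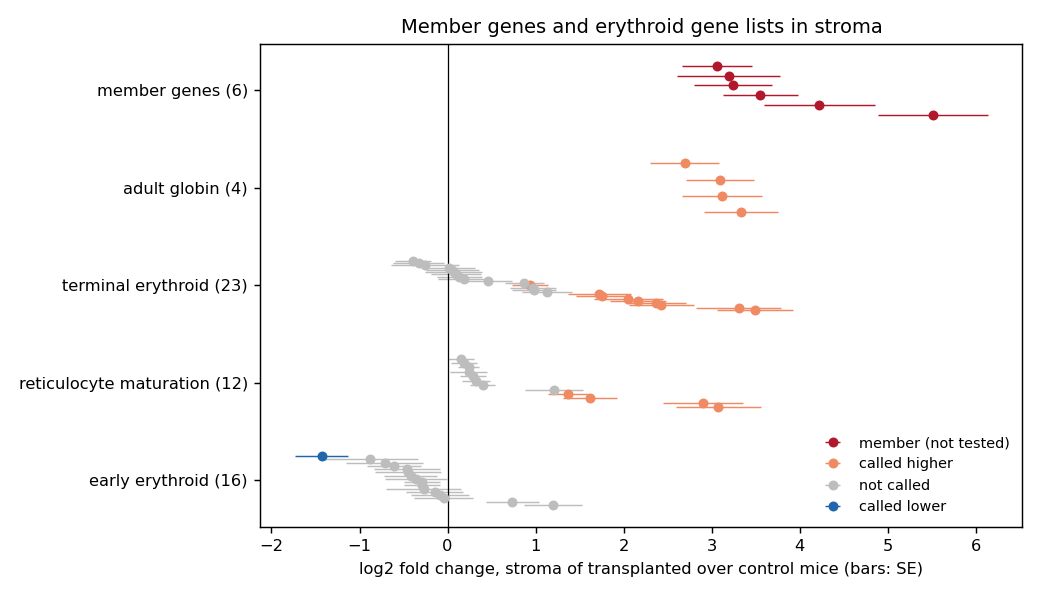
Log2 fold change of stroma from transplanted over control mice for the 6 genes and for the genes of 4 erythroid lists (number of genes in brackets); points are genes and bars are SE. The 6 genes lie between 3.06 and 5.51, the 4 globins between 2.696 and 3.332, and the early erythroid genes centre on a median of -0.32.

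Markers of other cell types that the stromal gate could hold were followed in the same fit. Of the 6 erythroid markers 5 were called higher, and their summed level was 2073 to 14978 CPM in transplanted stroma and 396 to 1294 CPM in control stroma. Of the 5 macrophage and monocyte markers, C1qa, a complement subunit, was called higher (log2 fold change 3.07, edgeR adjusted p = 0.00167), while the sum of the list was 34.0 to 308 CPM in transplanted stroma and 48.4 to 177 CPM in control stroma. None of the markers of LepR stroma, endothelium, osteoblasts, B cells, T and NK cells, plasma cells, neutrophils, megakaryocytes or leukocytes as a whole was called. No marker of these lists was at 0 in either group. The part of erythroid or macrophage RNA in the differences of the 6 genes was not tested.

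No close relative of Tmcc2, Fhdc1 or the Apol11 genes was called. Tmcc1 and Tmcc3 had log2 fold changes of 0.10 and -0.40, and neither was called. None of the other 13 formins was called, with log2 fold changes from -0.51 to 0.18. Of the 10 Apol genes that passed the filter on low counts, none other than Apol11a and Apol11b was called.

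Of the neighbours on the chromosome that had a fit, only Trim15, Slc4a1 and Gm8221 were called higher, and most were not called. No fitted neighbour of Tmcc2, Fhdc1 or Apol11a was called. Log2 fold changes beside Tmcc2 were 0.83 for F730311O21Rik, 0.16 for Nuak2 and 0.11 for Dstyk. Beside Fhdc1 they were -0.13 for Trim2 and 0.14 for Arfip1. Apol10a, beside Apol11a, was at 1.27 (edgeR adjusted p = 0.192). Some neighbours had no fit. The gene beside Trim10 on the RefSeq map, Trim15, rose to 1.02 ± 0.559 CPM in transplanted stroma, against 0.328 ± 0.0907 CPM in control stroma (SD, n = 7 and 8; 1.51 ± 0.30 SE in log2, edgeR adjusted p = 0.0130). Slc4a1, the nearest coding gene on one side of Bloodlinc, rose as given above. Rundc3a, the nearest on the other side, stood at 0.83 ± 0.23 in log2 fold change (SE) with an edgeR adjusted p of 0.118.

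Beside Apol11b, the pseudogene Gm8221 rose to 1.42 ± 1.04 CPM in transplanted stroma, against 0.0775 ± 0.0736 CPM in control stroma (SD, n = 7 and 8; log2 fold change 4.17 ± 0.62 SE, edgeR adjusted p = 0.00182), and it shares no 50-base window with the Apol11b transcripts. Control libraries held 0 to 14 counts of Gm8221, so its fold change is imprecise. Trim26, the next gene beyond Trim15, had a log2 fold change of 0.09 and was not called. Whether reads of a neighbour or of the opposite strand enter these counts was not tested, since the strand setting of the counting is not given in the sources used here.

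In every group of libraries the 6 genes were followed library by library against the summed CPM of Hba-a1, Hba-a2, Hbb-bs and Hbb-bt, both as log2(CPM + 0.5). Summed globin was 2100 to 16255 CPM in transplanted stroma and 310 to 1312 CPM in control stroma, so the groups did not overlap. In transplanted stroma all 6 genes correlated positively with globin, with a Pearson r from 0.87 for Apol11a to 0.98 for Tmcc2 (n = 7). Without the 2 libraries farthest from the median globin level, r stayed between 0.88 and 0.93. In control stroma r was 0.84 for Tmcc2 and 0.78 for Fhdc1, and it ran from 0.28 to 0.54 for the other four (n = 8). These stromal correlations are a description, because the same libraries were used to pick the genes.

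The haematopoietic libraries were not used to pick them. There, 27 gene and group pairs in all were computed, stroma included, with p-values from exact permutation of all pairings, two-sided, and Benjamini-Hochberg adjustment over the 27. All 15 pairs in CD45 cells were positive and 13 had an adjusted p below 0.05 for Pearson's r. The stromal pairs, which are only a description, entered this adjustment. The adjusted p-values of the CD45 pairs, and the count of 13, therefore depend on them. Bloodlinc could not be followed, since it had no counts in all but 1 of these libraries.

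Tmcc2 passed the adjusted threshold in all 3 groups. Its r was 0.98 in donor cells (Spearman's rho 0.93, n = 7, adjusted exact permutation p = 0.00482 for r), 0.96 in host cells (rho 0.96, n = 7, adjusted exact permutation p = 0.00476) and 0.92 in control cells (rho 0.90, n = 8, adjusted exact permutation p = 0.00904). Apol11b had an r of 0.91, 0.89 and 0.89 in donor, host and control cells (adjusted exact permutation p = 0.00804, 0.00779 and 0.00476 in that order). Trim10 had an r of 0.93, 0.87 and 0.97 in donor, host and control cells (adjusted exact permutation p = 0.00904, 0.0101 and 0.00476), but in donor cells r was 0.59 without the 2 libraries farthest from the median.

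Apol11a, at 0 to 39 counts per library, had an r of 0.89, 0.90 and 0.81 in donor, host and control cells (adjusted exact permutation p = 0.0155, 0.00476 and 0.0297). Fhdc1 was the exception. Its r was 0.91 in host cells (adjusted exact permutation p = 0.00476). In donor cells r was 0.77 (exact permutation p = 0.0429 unadjusted and 0.0526 adjusted), and 0.38 without the 2 farthest libraries. In control cells r was 0.60 (adjusted exact permutation p = 0.116). The points of a group share depth and scaling, and the part of these in the relation was not tested.

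**Figure D3:**
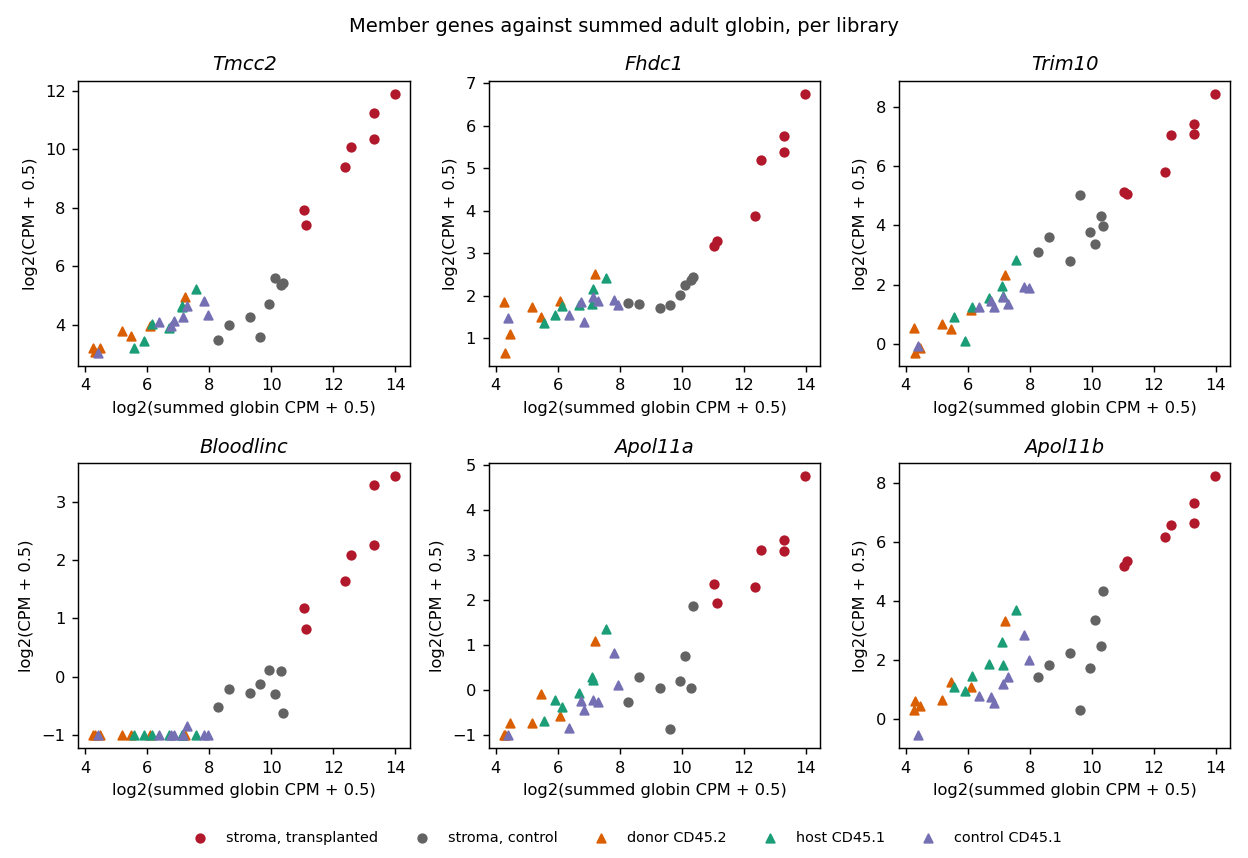
Each of the 6 genes against summed adult globin, both as log2(CPM + 0.5), 1 point per library; circles are stroma (7 transplanted, 8 control) and triangles are CD45 cells (7 donor, 7 host, 8 control). Stroma and CD45 libraries were scaled separately, so the position of circles against triangles is no comparison; within transplanted stroma, r is 0.87 to 0.98.

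The amount of each gene per unit of globin differed in how it changed. For each library the CPM of the gene was divided by the summed globin CPM. For Tmcc2 this ratio was 0.0765 to 0.244 in transplanted stroma and 0.0146 to 0.0433 in control stroma, with no overlap, so Tmcc2 was higher by more than globin was. For Fhdc1 the ratio was 0.00268 to 0.00659 in transplanted stroma and 0.00360 to 0.00988 in control stroma, and for Trim10 it was 0.0104 to 0.0214 in transplanted stroma and 0.00893 to 0.0403 in control stroma. Those ranges overlapped, as did those of Bloodlinc, Apol11a and Apol11b. Apol11b had median ratios of 0.0159 in transplanted stroma and 0.00681 in control stroma.

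In the same stroma libraries, genes were ranked by their Pearson r to the mean standardised profile of the 6 genes after the mean of each group was taken away, over 15 libraries and 16435 genes with a symbol and a mean of at least 1 CPM. Among the 10 most alike were Hbq1b (r = 0.96), Alas2 (0.96), Slfn14 (0.95), Frmd4a (0.93), Itsn1 (0.93), Xpo7 (0.93), Cln8 (0.93), 2610307P16Rik (0.92) and Eif2ak1 (0.92). Hbq1b is a theta globin gene and Eif2ak1 is the haem-regulated kinase of translation in red cell precursors. Of the erythroid lists, Alas2 and Xpo7 were among the 10, and Slc4a1 ranked 14. These r values have no test, and they come from the libraries that picked the 6 genes.

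Among the sorted haematopoietic cells, the question was whether the 6 genes also moved in the JAK2V617F donor cells, in the host cells beside them, or in later myeloid cells. None of the tested genes was called higher there. Within mice, donor cells held less of Tmcc2, Trim10 and Apol11b than host cells did. The donor, host and control comparisons share libraries, so they are not independent of each other.

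Bloodlinc had no counts in any of the 7 donor or 7 host libraries and 1 count in 1 of the 8 control libraries, so it was not tested in CD45 cells, and Apol11a did not pass the count filter. The remaining 4 genes were tested. Tmcc2 had a lowest, median and highest level of 7.86, 11.8 and 30.5 CPM in donor cells, 8.78, 15.9 and 36.8 CPM in host cells and 7.76, 17.9 and 27.9 CPM in control cells. Trim10 had 0.321, 0.977 and 4.496 CPM in donor cells, 0.591, 2.45 and 6.59 CPM in host cells and 0.470, 2.16 and 3.31 CPM in control cells. All 3 groups overlapped for both genes.

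Fhdc1 had a lowest, median and highest level of 1.07, 2.84 and 5.20 CPM in donor cells, 2.05, 2.91 and 4.83 CPM in host cells and 2.10, 3.00 and 3.38 CPM in control cells. Apol11b had 0.716, 1.05 and 9.43 CPM in donor cells, 1.42, 3.03 and 12.4 CPM in host cells and 0.176, 1.497 and 6.67 CPM in control cells. The top value in donor and in host cells came from mouse N032 for each of Tmcc2, Fhdc1, Trim10, Apol11a and Apol11b. The same mouse had the lowest or next to lowest stromal level of Tmcc2, Fhdc1, Trim10, Bloodlinc and Apol11b among the transplanted mice.

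Donor against control cells, none of the 4 tested genes was called by edgeR, none had an unadjusted p below 0.05, and DESeq2 and limma-trend called none, while 22.7% of 13906 genes were called higher and 23.0% lower. The log2 fold changes were -0.50 ± 0.28 for Tmcc2 (adjusted p = 0.157), -0.81 ± 0.44 for Trim10 (adjusted p = 0.144), -0.11 ± 0.24 for Fhdc1 (adjusted p = 0.726) and -0.03 ± 0.58 for Apol11b (adjusted p = 0.974; SE in each case). The 95% intervals reached -1.04 to 0.05 for Tmcc2 and -1.67 to 0.05 for Trim10, so a moderate decrease was not resolved. Without the N204 donor library none was called, with Tmcc2 at -0.48 and Trim10 at -0.78 (edgeR adjusted p = 0.222 and 0.209).

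This result changed with the libraries kept and with the model for Tmcc2 and Trim10. Without the donor library of N032 both were called lower by edgeR, at -0.76 (adjusted p = 0.0122) and -1.32 (adjusted p = 0.00830), and without the control library of N093 they were called lower at -0.66 (adjusted p = 0.0316) and -1.06 (adjusted p = 0.0293). With all libraries kept and euthanasia day entered as a block they were also called lower, at -0.95 (adjusted p = 0.000456) and -1.47 (adjusted p = 0.00148). Females alone, and no filter beyond 1 count, also changed the number of tested genes called, as given in the section on processing. Calls were frequent in these fits. The fits without 1 library called 5730 to 6732 genes in all, and the main fit and other alternatives 3027 to 7118, where the main fit tested 13906. Over all libraries the globins were called lower in donor cells, 4 of 4, with log2 fold changes from -1.69 to -1.48. Other late genes did not follow them as a set. Of the 23 terminal erythroid genes 9 were called higher in donor cells and 1 lower, with a median log2 fold change of 0.18. Of the 12 reticulocyte maturation genes 1 was called higher and 2 lower. At the same time 10 of 16 early erythroid genes were called higher in donor cells and 1 lower. Pklr, the red cell pyruvate kinase, Car1, carbonic anhydrase 1, Klf1 and Tal1, a transcription factor of early blood cells, were among them, at 3.33, 2.63, 2.24 and 0.88 in log2 fold change.

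Host against control cells, none of the 4 genes was called by edgeR, DESeq2 or limma-trend, and none had an unadjusted p below 0.05, while 8.61% of 14073 genes were called higher and 7.82% lower. The log2 fold changes were 0.05 ± 0.28 for Tmcc2, 0.17 ± 0.18 for Fhdc1, 0.25 ± 0.39 for Trim10 and 0.89 ± 0.52 for Apol11b (SE), with an edgeR adjusted p of 0.919, 0.558, 0.696 and 0.252 in that order. The widest interval was that of Apol11b, from -0.13 to 1.91. The globins were not called in host cells, 0 of 4.

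Donor against host cells of the same 7 mice, the fit that ignores the pairing called none of the 4 genes, with 4.17% of 13662 genes called higher and 9.94% lower. DESeq2 and limma-trend called none, and 1, Trim10, had an unadjusted edgeR p below 0.05. Without the donor library of N032 this fit called Trim10 lower at -1.54 (edgeR adjusted p = 0.0271) and Apol11b at -1.74 (adjusted p = 0.0292). The unpaired fits without 1 library called 1507 to 2554 genes in all. Both sorts come from the same animals, and with the animal as a block 3 of the 4 were called lower in donor cells, where the background was 15.2% of genes called higher and 18.5% lower.

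In the paired fit Tmcc2 was at -0.50 ± 0.11 (adjusted p = 0.00231), Trim10 at -1.03 ± 0.21 (adjusted p = 0.00189) and Apol11b at -1.01 ± 0.17 (adjusted p = 0.000528), as log2 fold changes with SE from edgeR. Donor cells were lower than host cells in 7 of 7 mice for each of these, with differences in log2(CPM + 0.5) from -0.98 to -0.01 for Tmcc2, from -1.45 to -0.35 for Trim10 and from -1.32 to -0.34 for Apol11b. Apol11a, which was not tested, was also lower in donor cells in 7 of 7 mice. It rests on 0 to 30 counts per donor library and 2 to 39 per host library, so its differences are imprecise. The share of all genes that were lower in 7 of 7 mice is not given here, so these counts of mice are a description. Fhdc1 was lower in 5 of 7 mice and was not called (log2 fold change -0.25 ± 0.18, adjusted p = 0.318).

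The 3 paired calls held without each mouse in turn. Without N204 they were -0.40 for Tmcc2 (adjusted p = 0.0102), -0.87 for Trim10 (adjusted p = 0.00785) and -0.89 for Apol11b (adjusted p = 0.00267) by edgeR. The fit without N204 called 2056 of 13656 genes higher and 2270 lower. In the paired fit of all mice all 4 globins were called lower, from -1.29 to -1.25. The 23 terminal erythroid genes went both ways, with 12 called higher, 5 lower and a median log2 fold change of 0.26. Alas2 and Slc4a1 were among the 5, at -1.04 and -0.97, while Add2 and Ermap were called higher at 2.78 and 2.56. Of the 12 reticulocyte maturation genes, 0 were called higher and 1 lower. Of the 16 early erythroid genes, 11 were called higher and 1 lower. The part of erythroid cell content in these differences was not tested.

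**Figure D4:**
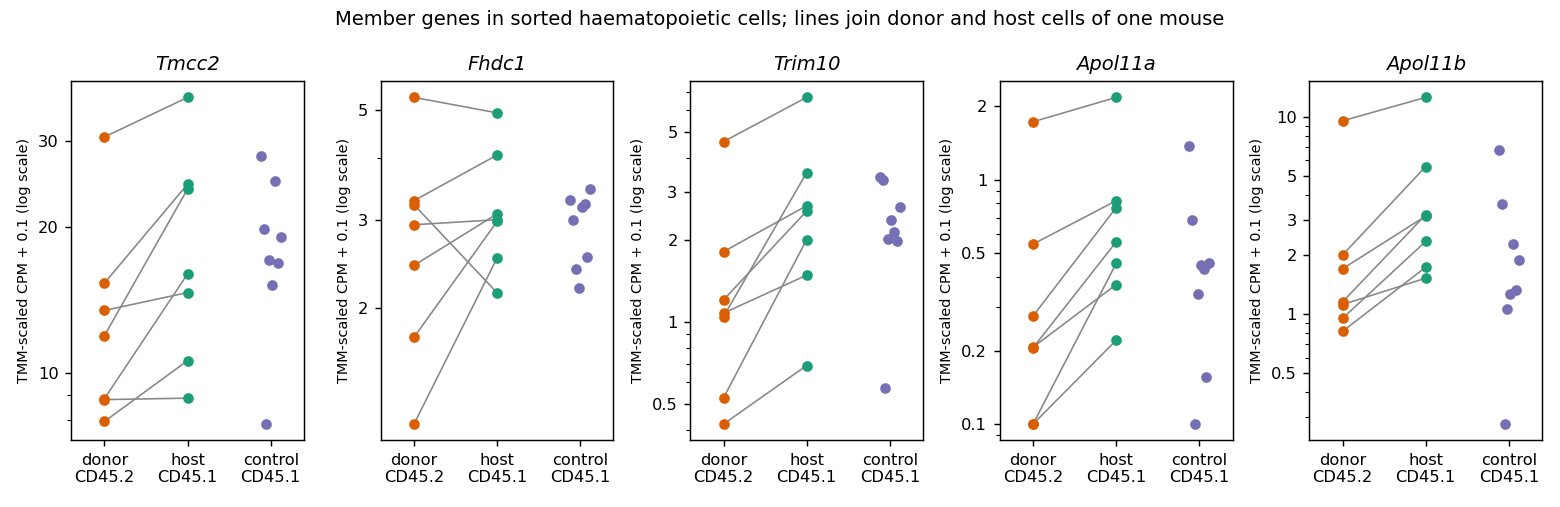
TMM-scaled CPM plus 0.1 (log axis) in donor CD45.2, host CD45.1 and control CD45.1 cells for the 5 genes with counts there; points are mice and lines join the donor and host cells of 1 mouse. Donor points lie below their host partner in 7 of 7 mice for Tmcc2, Trim10, Apol11a and Apol11b and in 5 of 7 for Fhdc1.

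In CD11b+ cells at 52 weeks Bloodlinc again had no counts in any of the 6 libraries, and the other 5 genes were tested. No gene of 15257 was called by edgeR (0%), although 2506 had an unadjusted p below 0.05. DESeq2 called 333 genes and limma-trend 2 or 4, depending on the value added to TPM. None of the 5 genes was called by any of these tools or had an unadjusted edgeR p below 0.05.

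Tmcc2 had 6.92, 1.39 and 11.2 CPM in transplanted mice N116, N129 and N187, against 10.8, 9.23 and 6.36 CPM in control mice N112, N128 and N168. Trim10 had 1.84, 0.0398 and 2.68 CPM in the transplanted mice, against 2.68, 1.93 and 1.34 CPM in the control mice in the same order. The transplanted mice thus spread on both sides of the controls, and N129 was low for Tmcc2, Trim10, Apol11b and summed globin alike, with 4.63 CPM of globin. Fhdc1 had 1.88, 0.796 and 1.52 CPM in the transplanted mice, against 2.13, 2.68 and 2.53 CPM in the control mice. These did not overlap, and 11.9% of all tested genes had all transplanted libraries below all controls (log2 fold change -0.81 ± 0.38 SE, edgeR adjusted p = 0.320).

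The sex by transplant interaction was not called for any gene of the 6 that was tested in stroma, donor or host cells, and edgeR called 0, 1 and 0 genes in all in those comparisons, in that order. In donor cells 2 of the 4 tested genes had an unadjusted interaction p below 0.05, Fhdc1 with 0.00326 and Trim10 with 0.0364 (edgeR, adjusted p = 1 for both), with a male minus female difference of 1.29 ± 0.37 and 1.85 ± 0.81 on the log2 scale. In stroma the log2 fold changes for transplanted over control mice were 5.94 in males and 4.93 in females for Tmcc2, and 3.06 in males and 3.02 in females for Trim10.

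Across the 7 transplanted mice, log2 blood chimerism and the stromal level of the 6 genes had a Pearson r from -0.28 to 0.05. In donor and host cells r was 0.24 to 0.60 over the 5 genes with counts. Over all 16 pairs the smallest adjusted exact permutation p was 0.825 for r and 0.320 for Spearman's rho, which with 7 mice leaves all but strong relations unresolved.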

How the data were processed

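Bulk RNA was sequenced from sorted marrow cells of 43 libraries, grouped by their labels, with each animal as the replicate. The authors deposited raw gene counts and TPM for every library; per the submitters' processing notes the tools were STAR 2.7.3a, featureCounts of Subread 1.6.2 and RSEM 1.3.3, on build GRCm39. How multi-mapped reads and strand were counted is not given in the sources used here. The 6 genes and all gene lists were chosen with earlier results of these data known.

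Counts were scaled by TMM and tested by edgeR 4.0.16 (quasi-likelihood, filterByExpr, sex as covariate, R 4.3.3) with Benjamini-Hochberg adjustment over all genes that passed the filter. Intervals of 95% are the fold change ± 1.96 SE. Correlations used exact permutation (Python 3.11.15, scipy 1.17.1). The code was tested on simulated data. DESeq2 1.42.0, limma 3.58.1 on log2(TPM + 0.1) and log2(TPM + 1), other filters and scalings, single sexes, day-of-euthanasia and animal blocks, and leaving out each library were alternatives. Donor and host libraries pair because they come from the same animals; their deviations correlated in all 7 pairs (r = 0.21 to 0.63). Leaving out animals from the paired fit and the same-animal correlations were chosen after seeing the data. The text names, by rule, the 6 genes, the 4 called genes of smallest p in a list, family members and neighbours, and the 10 most alike by correlation; exceptions named for context were chosen after their values were seen. Ahsp of the terminal list was not matched. A few genes that the rule selects are not reported here. Promoters are RefSeq sequence of build GRCm38.p6, a build other than that of the counts, and were matched by symbol.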

Additional observations from a re-analysis of the deposited data

Results flagged for a closer look

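Within groups of 7 or 8 libraries, 27 sets of values were checked for a library far from the others, and 2 stood out; chance alone would single out about 1 in 20 such sets. Trim10 in control CD45.1 cells was at 0.47 CPM in mouse N093, with the next lowest library at 1.88 CPM. The same library had the lowest summed globin of its group, 20.5 CPM. Apol11b in donor CD45.2 cells was at 9.43 CPM in mouse N032, with the next highest library at 1.89 CPM. That library had the highest summed globin of the donor cells, 147 CPM. The part of erythroid cell content in both values was not tested.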

How the results depend on the processing

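The stromal count of late erythroid genes called higher was 17 of 39. It was 5 in males alone and 0 in females alone, with fewer samples in each. Of all genes, 27 of 27523 were called higher in males alone and 0 of 25737 were called in females alone. The remaining alternatives gave 13 to 22 late erythroid genes, and leaving out 1 library gave 15 to 21. The number of the 4 tested genes called in donor against control cells was 0, but 1 with no filter beyond 1 count, 3 in females alone, 2 with euthanasia day as a block, and 0 to 2 when 1 library was left out. The cause was not tested. In donor against host cells the count was 0, but 3 with the animal as a replicate block (pairing), 3 in each paired fit without 1 animal, and 0 to 2 when 1 library was left out of the unpaired fit. The day block changed no other member count. In host against control cells and in CD11b cells the count was 0 under every alternative run. The number of all genes called ran, over the alternatives other than leaving out libraries, from 0 to 737 in stroma (391 in the main analysis), 3027 to 7118 in donor, 121 to 2800 in host, 450 to 4605 in donor against host and 0 to 333 in CD11b cells. The stromal log2 fold changes of the 6 genes stayed positive in every alternative run, but on log2(TPM + 1), which shrinks low genes, they were 1.91 for Fhdc1, 1.46 for Bloodlinc and 1.83 for Apol11a, and on log2(TPM + 0.1) they were 2.41 for Fhdc1 and 2.87 for Bloodlinc; without control N002 they were 3.85 for Apol11a and 4.88 for Apol11b. Low counts limit Bloodlinc and Apol11a in CD45 and CD11b cells, and 3 mice a group limit the CD11b comparison.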

Other observations

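Levels of the same gene in different sorts of 1 mouse were also compared in 20 combinations of sorts and genes chosen after the data were seen, 15 over the 7 transplanted mice and 5, stroma against CD45.1 cells, over the 8 control mice; p-values were adjusted over all 20. Apol11a and Apol11b in donor cells correlated with their level in host cells, at r = 0.95 and 0.93 (adjusted exact permutation p = 0.0278 for both), and r was 0.76 and 0.62 without the 2 mice farthest from the median. Tmcc2 and Trim10 had an r of 0.86 and 0.85 between donor and host cells (adjusted exact permutation p = 0.0728 and 0.115). No stromal level passed the adjusted threshold against donor, host or control CD45 cells of the same mouse, and in control mice r ran from -0.58 for Trim10 to 0.72 for Apol11a. The most negative pairs were Apol11b in stroma against host and against donor cells, at r = -0.75 and -0.74 (adjusted exact permutation p = 0.148 for both).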
